A study of Mus musculus with 24 samples.

Results

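Matrix metalloproteinases (MMPs) and the tissue inhibitors of metalloproteinases (TIMPs) were followed in epididymal white adipose tissue (eWAT) through 8 genes chosen by symbol: Mmp2, Mmp3, Mmp12, Mmp14, Mmp19, Timp1, Timp2 and Timp3. They are 8 of the 16730 genes in the deposited tables, and all 8 passed the filter on low counts that left 15020 genes for testing. The samples were 24 male mice, 1 QuantSeq 3′ library per mouse, in 4 groups of 6. On diet 5015, a chow, for 20 weeks were the chow fl/fl and chow AKO groups, and on a high-fat diet (HFD, 45% fat) for 20 weeks were the HFD fl/fl and HFD AKO groups, where fl/fl and AKO stand for the Lama4 fl/fl and Lama4 AKO genotypes. All mice carried the strain label LFKO and were collected at 24 to 26 weeks of age. Both genotypes, labelled wild type (floxed) and LAMA4 knockout, carried floxed alleles of exon 3 of Lama4, which encodes the laminin α4 chain of basement membranes. In Lama4 AKO mice an adiponectin-Cre transgene deletes that exon in adipocytes, and the other cells of the fat pad keep it.

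MMPs are zinc-dependent endopeptidases that cut collagens, laminins, elastin and other matrix proteins, and TIMPs bind their active sites and block them. Most MMPs are secreted as inactive proenzymes. Membrane-bound MT1-MMP, encoded by Mmp14, together with TIMP2 activates the MMP2 proenzyme at the cell surface. In adipose tissue these enzymes and inhibitors come from adipocytes, stromal cells and macrophages, and they take part in the matrix turnover that accompanies growth of the fat pad.

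Positions are given on GRCm38. Mmp2 (ENSMUSG00000031740), which encodes gelatinase A, lies at chr8:92827291-92853420. Mmp3 (ENSMUSG00000043613), encoding stromelysin-1, lies at chr9:7445822-7455975, and Mmp12 (ENSMUSG00000049723), encoding macrophage elastase, lies nearby at chr9:7344381-7369499. Mmp14 (ENSMUSG00000000957) lies at chr14:54431612-54445364, and Mmp19 (ENSMUSG00000025355), a secreted protease of broad specificity, at chr10:128790910-128800824. Timp1 (ENSMUSG00000001131) lies at chrX:20870166-20874735 inside an intron of Syn1, Timp2 (ENSMUSG00000017466) at chr11:118301069-118355740 on the minus strand, and Timp3 (ENSMUSG00000020044), whose protein is bound to the matrix, at chr10:86300372-86349506. All except Timp2 lie on the plus strand. Exons of 3 of these genes overlap exons of a gene on the other strand. Mmp12 shares 157 exon bases with Mmp1b, Timp3 shares 1733 with Syn3, and Mmp19 shares 789 with Tmem198b and 212 with Gm47093. Whether the counting used strand is not given in the sources used here, so reads of the overlapping genes may be included. Tmem198b, the only one of these 4 partners in the deposited tables, had 79 to 247 counts per library.

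Because several of these genes moved together, the 250 bases before their RefSeq start sites (GRCm38.p6) were searched on both strands for 3 motifs. An AP-1 site was taken as TGAGTCA and a GC box as GGGCGG. The third motif was the core promoter element of letters TATAAA. Each was counted also in its reverse complement, and none of the 3 overlaps another. Of 32851 RefSeq promoters of this length, 4.46% held the AP-1 letters, 12.4% the letters TATAAA and 32.7% the GC box letters. Promoter sequences were matched for 6 of the 8 genes, in 7 windows, since Mmp12 has a pair of annotated starts. Mmp2 and Mmp19 had no entry. The 4 windows below, 5′ to 3′ on the gene's strand with motifs in capitals, show the AP-1 promoters of Mmp3 (chr9:7445572-7445821, plus strand) and Mmp12 (second start, chr9:7347124-7347373, plus strand) and the GC box promoters of the inhibitors Timp1 (chrX:20869916-20870165, plus strand) and Timp3 (chr10:86300162-86300411, plus strand).
Mmp3: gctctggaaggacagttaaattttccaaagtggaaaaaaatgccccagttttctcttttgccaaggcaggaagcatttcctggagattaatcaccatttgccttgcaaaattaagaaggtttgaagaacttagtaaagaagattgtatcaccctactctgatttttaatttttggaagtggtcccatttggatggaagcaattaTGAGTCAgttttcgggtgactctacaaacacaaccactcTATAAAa
Mmp12: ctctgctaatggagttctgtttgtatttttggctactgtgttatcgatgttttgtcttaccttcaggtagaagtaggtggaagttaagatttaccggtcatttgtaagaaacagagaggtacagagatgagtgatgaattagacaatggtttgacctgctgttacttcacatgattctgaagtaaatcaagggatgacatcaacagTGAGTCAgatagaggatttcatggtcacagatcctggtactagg
Timp1: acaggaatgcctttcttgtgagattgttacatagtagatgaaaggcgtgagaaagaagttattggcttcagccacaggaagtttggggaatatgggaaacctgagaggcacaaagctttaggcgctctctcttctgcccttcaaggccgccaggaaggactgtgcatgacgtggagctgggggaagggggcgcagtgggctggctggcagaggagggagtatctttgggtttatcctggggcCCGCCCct
Timp3: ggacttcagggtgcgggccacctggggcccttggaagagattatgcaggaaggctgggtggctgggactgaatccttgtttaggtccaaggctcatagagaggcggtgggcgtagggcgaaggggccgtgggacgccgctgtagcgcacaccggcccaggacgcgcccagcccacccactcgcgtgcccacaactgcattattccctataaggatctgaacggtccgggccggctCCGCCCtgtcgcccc
The AP-1 letters began 46 bases before the start of Mmp3 and 44 bases before the second start of Mmp12. In the Mmp3 window the letters TATAAA began 7 bases before the annotated start, and whether they act as a core element there was not tested. The first Mmp12 window held none of the 3 motifs. The other matched windows held GC boxes only, 2 in Mmp14 and 1 each in Timp1, Timp2 and Timp3. A match of letters is a description of the sequence and not evidence that a factor binds there.

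Library totals ran from 5579590 to 18764516 counts. Levels are given as CPM, each gene's count scaled to a common library size, after TMM scaling, and since 3′ counts are not scaled by length, levels are compared between groups and not between genes. In a second fit of 19, 5 libraries were left out, because the study removed outlier mice by principal components without naming them and an earlier analysis inferred these 5 from the expression values (chow fl/fl replicate 3, chow AKO replicate 5 and HFD fl/fl replicates 3, 4 and 6). They lay on the first principal component toward the other diet, so that leaving them out widens the difference between diets by construction, and the p-values from 19 libraries are not independent of that choice. The chow fl/fl library of replicate 1 also stood apart and was kept in both fits. The deleted exon lies outside the 3′ end that QuantSeq reads, so the counts do not read the deletion itself. The study reported lower Lama4 by quantitative PCR in eWAT of chow-fed AKO mice. Here Lama4 medians were 91.1 and 113 CPM in chow fl/fl and AKO mice and 79.8 and 44.3 CPM in HFD fl/fl and AKO mice. AKO against fl/fl, the log2 difference was 0.12 ± 0.34 (SE) on chow and -0.70 ± 0.34 on HFD (edgeR adjusted p = 0.974 and 0.338). With the 19 libraries it was 0.07 ± 0.28 on chow and turned to 0.14 ± 0.32 on HFD (edgeR adjusted p = 0.965 and 0.937). The genotypes used here rest on the labels. Why Lama4 counts were not lower in chow AKO mice, or in HFD AKO mice with the 19 libraries, was not tested. Of the defining markers of adipocytes (8 genes), macrophages (11) and stromal cells (10), none was at 0 in any library. Of 8 epididymis and testis markers, 1 was in the deposited tables, with a highest level of 13.2 CPM in chow fl/fl mice and 0 in all HFD mice.

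The 5 metalloproteinases had their highest group median in HFD AKO mice and their lowest in chow AKO mice, with both fl/fl groups between. The inhibitors did not share this order. Timp1 had its highest median in the HFD AKO group, with the other 3 medians between 48.1 and 48.8 CPM, whereas Timp3 had its lowest median there and Timp2 varied little between groups. The sentences that follow give the lowest, median and highest CPM of the 6 libraries in each group.

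Mmp14, the membrane-bound activator, lay close together in HFD AKO mice. It was at 293, 337 and 360 CPM in HFD AKO mice against 71.5, 125 and 309 CPM in chow AKO mice. In HFD fl/fl mice it was at 79.5, 234 and 268 CPM, and in chow fl/fl mice at 78.0, 199 and 210 CPM. All 6 HFD AKO libraries lay above every library of either fl/fl group, and 1 chow AKO library, replicate 5, overlapped them. How many of all genes separate in this way was not counted. Mmp2, whose proenzyme MT1-MMP activates, was at 157, 199 and 257 CPM in HFD and 38.3, 75.2 and 161 CPM in chow AKO mice. It was at 48.6, 122 and 232 CPM in HFD and 55.9, 149 and 155 CPM in chow fl/fl mice. The AKO groups again overlapped through replicate 5 of the chow group, at 161 CPM, while among fl/fl mice the diets overlapped broadly.

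Mmp12, the elastase of macrophages, had the widest range. It was at 1070, 2341 and 5053 CPM in HFD and 169, 347 and 1926 CPM in chow AKO mice. In fl/fl mice it was at 202, 1048 and 3167 CPM on HFD and 56.3, 1118 and 2365 CPM on chow. The AKO groups overlapped only through chow replicate 5, which was above 2 of the 6 HFD libraries, and both fl/fl groups spanned most of the whole range. Mmp19 was at 217, 326 and 637 CPM in HFD and 76.8, 116 and 316 CPM in chow AKO mice, against 101, 185 and 369 CPM and 62.6, 158 and 339 CPM in HFD and chow fl/fl mice. Mmp3, which cleaves proteoglycans and can activate other proenzymes, was at 27.9, 40.7 and 60.2 CPM in HFD and 4.26, 13.8 and 42.1 CPM in chow AKO mice. It was at 6.12, 27.7 and 41.9 CPM in HFD and 4.67, 33.9 and 50.9 CPM in chow fl/fl mice. For both genes all 4 groups overlapped in at least part of their range.

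Among the inhibitors, Timp1, an inducible TIMP, was at 61.2, 75.5 and 132 CPM in HFD AKO mice. It was at 18.7, 48.1 and 73.8 CPM in chow AKO, 9.73, 48.4 and 139 CPM in HFD fl/fl and 8.53, 48.8 and 92.3 CPM in chow fl/fl mice. The highest single library was an HFD fl/fl mouse, and the HFD AKO group differed mainly in having no low library. Timp2 was at 834, 1296 and 1494 CPM in HFD AKO, 921, 1220 and 1539 CPM in chow AKO, 744, 928 and 1590 CPM in HFD fl/fl and 977, 1312 and 1450 CPM in chow fl/fl mice, so all 4 ranges lay within each other over most of their length. Timp3 was at 116, 145 and 209 CPM in HFD AKO mice and reached higher in the other groups, at 131, 204 and 395 CPM in chow AKO, 129, 184 and 396 CPM in HFD fl/fl and 119, 164 and 492 CPM in chow fl/fl mice.

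**Figure D1:**
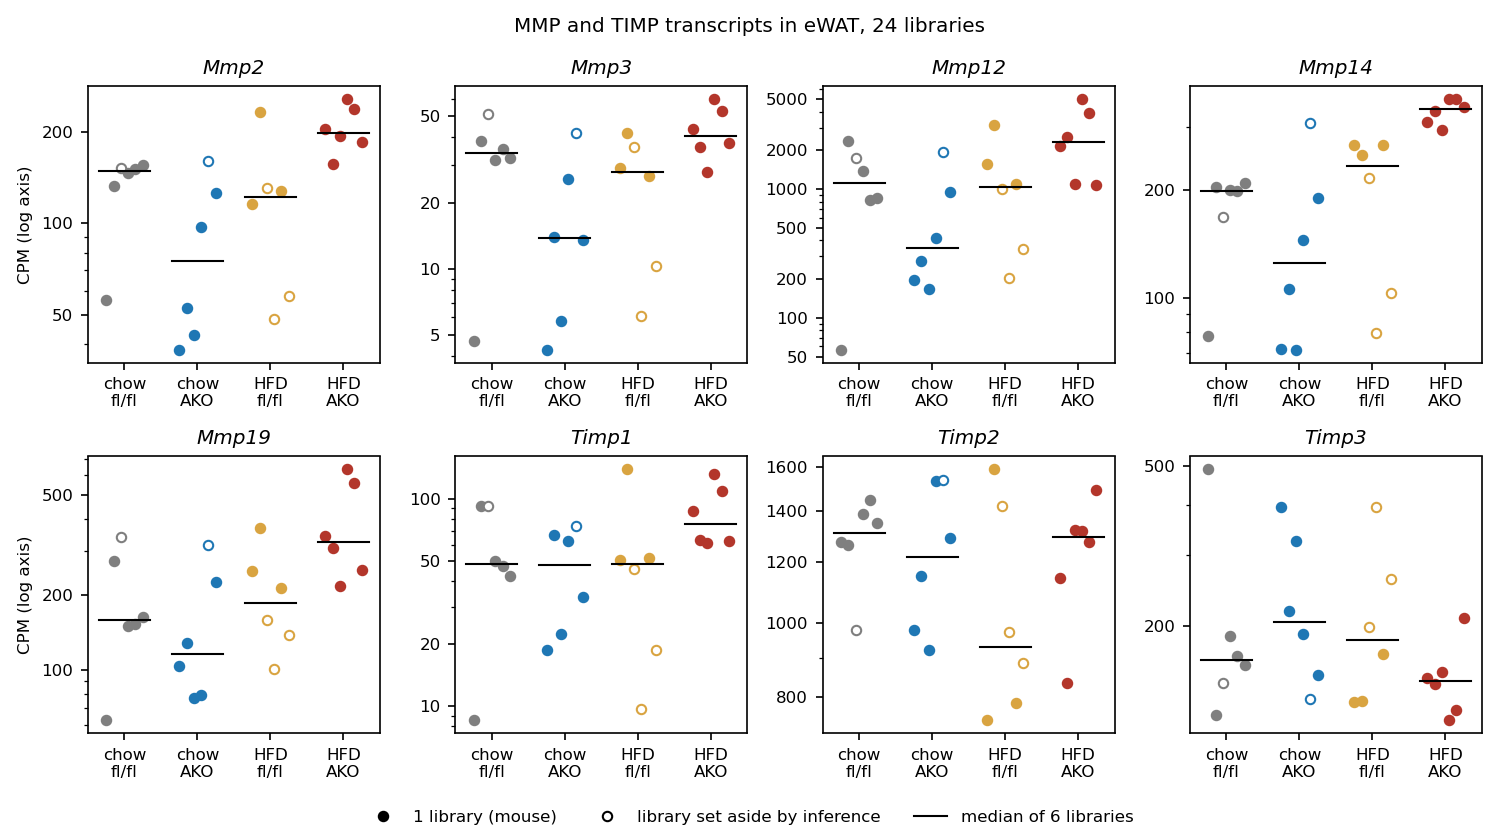
CPM of each gene in each library, on a log axis, by group, with 1 point per mouse, hollow points for the 5 libraries inferred to have been set aside and a line at the median of 6. The HFD AKO points of Mmp14 sit between 293 and 360 CPM, above every fl/fl point, while the Timp2 groups lie over each other.

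HFD was first compared with chow within AKO mice, which asks how the diet moved these genes in mice with adipocyte deletion of Lama4. The 5 metalloproteinases were higher on HFD by log2 fold changes of 1.16 to 2.0, with a median of 1.31 against a median of -0.00 over all genes tested, and 4 of them passed an adjusted p of at most 0.05. Mmp2 rose 2.39-fold (log2 fold change 1.25 ± 0.36, SE, edgeR adjusted p = 0.0242). Mmp14 rose 2.24-fold (1.16 ± 0.34, adjusted p = 0.0244), and Mmp19 rose 2.50-fold (1.32 ± 0.41, adjusted p = 0.0289). Mmp12 rose 4.01-fold with a wider error (2.0 ± 0.72, adjusted p = 0.0489), and Mmp3, at 2.48-fold (1.31 ± 0.51), had an adjusted p of 0.0636. None of the 3 inhibitors passed: Timp1 differed by 0.89 ± 0.51 (adjusted p = 0.193), Timp2 by -0.00 ± 0.20 (adjusted p = 0.989, 95% interval -0.41 to 0.40) and Timp3 by -0.66 ± 0.34 (adjusted p = 0.143).

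These 4 of 8 genes, all higher, stand against a background of 22.5% of all genes at that adjusted p in this comparison, 9.06% higher and 13.5% lower. The study's own rule for a call has 3 parts: a 1.5-fold change, a nominal p no higher than 0.001, and an average of 2 CPM or more on the higher side. By these 3 criteria together none of the 8 was called, against 4.28% of all genes, and the lowest nominal p among them were 0.002 for Mmp2 and 0.00206 for Mmp14. This count depended on the method and on single libraries. On the same 24 libraries limma-voom called 2 of the 8, beside 4.06% of all genes, and DESeq2 called 3, beside 8.75%. Without chow AKO replicate 5 Mmp2, Mmp14 and Mmp19 were called in edgeR, at log2 fold changes of 1.53, 1.51 and 1.66, beside 7.74% of all genes, and without chow AKO replicate 1 or 3, or HFD AKO replicate 4, none of the 8 reached an adjusted p of 0.05. With the 19 libraries all 5 metalloproteinases were called, at log2 fold changes of 1.53 for Mmp2, 1.77 for Mmp3, 2.71 for Mmp12, 1.52 for Mmp14 and 1.66 for Mmp19, beside 15.8% of all genes called and 6.28% called as higher. Timp1 was then at 1.08 (adjusted p = 0.0637) and Timp3 at -0.78 (adjusted p = 0.0529). Leaving out each of those 19 in turn left 2 to 5 of the 8 called, with 2 when chow AKO replicate 3 was left out.

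In this tissue as a whole, fewer cells of a type and less RNA per cell cannot be told apart. Markers of some cell types also moved in the same comparison. At an adjusted p of at most 0.05, 9.06% of all genes were higher there and 13.5% lower. The counts for general macrophage and stromal markers were close to those shares. Of 10 lipid-associated macrophage markers 3 were higher in HFD than in chow AKO mice at an adjusted p of at most 0.05, with a median log2 fold change of 1.38, and their summed level ran from 18151 to 26752 CPM on HFD and from 13466 to 19519 CPM on chow. Of 11 general macrophage markers 1 was higher and 1 lower, with sums of 8523 to 14101 CPM on HFD and 2827 to 9790 CPM on chow. Of 6 mast cell markers all 6 were higher, with sums of 592 to 1995 CPM on HFD and 37.1 to 417 CPM on chow. Of 8 adipocyte markers 6 were lower, with a median of -1.18 and sums of 2837 to 6021 CPM on HFD against 3430 to 16346 CPM on chow. Of 10 stromal progenitor and fibroblast markers 1 was higher, with sums of 5431 to 6967 CPM on HFD and 4285 to 6265 CPM on chow. Endothelial markers were lower in 3 of 7 (median -0.68, sums of 268 to 552 CPM on HFD and 395 to 843 CPM on chow), smooth muscle and pericyte markers in 3 of 6 (median -0.92, 180 to 317 CPM and 227 to 1053 CPM) and mesothelial markers in 2 of 7 (median -1.34, 10.5 to 58.9 CPM and 28.0 to 158 CPM). Of the tested T cell, B cell and neutrophil markers none passed. No marker of the lists with a changed gene was at 0 in any library, and their part in the metalloproteinase changes was not tested.

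In fl/fl mice none of the 8 genes passed the test between the same diets. Log2 fold changes of HFD against chow ran from -0.37 for Mmp3 to 0.16 for Mmp14, with standard errors of 0.20 to 0.70 and adjusted p of 0.689 or more. None of the 8 was called, against 0.186% of all genes, and no gene of the 15020 reached an adjusted p of 0.05 in edgeR, although 9.25% had an unadjusted p under 0.05 and none of the 8 did. limma-voom also gave 0 genes at that adjusted p and DESeq2 gave 27, with none of the 8 among them. The 95% intervals reached up to 0.58 for Mmp2, 0.66 for Mmp3, 1.46 for Mmp12, 0.85 for Mmp14 and 0.94 for Mmp19, below the estimates in AKO mice, but down to -1.42 for Mmp12, and the difference between genotypes is tested only by the interaction. With the 19 libraries, where HFD fl/fl mice were 3, the metalloproteinases had values of 0.13 to 0.76, Timp1 0.68, Timp2 -0.43 and Timp3 -0.71, and again none was called, against 11.8% of all genes.

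The difference between those diet effects is the interaction of diet and genotype. It was positive for all 5 metalloproteinases, at 1.41 ± 0.51 for Mmp2, 1.68 ± 0.71 for Mmp3, 1.98 ± 1.0 for Mmp12, 1.0 ± 0.47 for Mmp14 and 1.21 ± 0.57 for Mmp19 on the log2 scale. For Timp1 it was 0.97 ± 0.72, for Timp2 0.26 ± 0.28 and for Timp3 -0.68 ± 0.48. None was called, against 0.366% of all genes, and adjusted p ran from 0.25 for Mmp2 to 0.624 for Timp2, so a difference between genotypes in the response to HFD was not established for any of them. Unadjusted, 4 of the 8 had p under 0.05, beside 15.6% of all genes. The call turned with the method. DESeq2 and limma-voom called none of the 8, edgeR on the 19 libraries none against 0.673% of all genes, and limma-voom with sample quality weights, which gives less weight to libraries far from their group, called all 5 metalloproteinases at 1.84 (Mmp19) to 3.48 (Mmp12), beside 8.8% of all genes. Averaged over genotypes, HFD against chow gave 0.66 ± 0.24 for Mmp14 (adjusted p = 0.0586) and 0.71 ± 0.29 for Mmp19 (adjusted p = 0.0822), with none of the 8 called against 2.3% of all genes and none at an adjusted p of at most 0.05 against 13.3%. With the 19 libraries Mmp14 (1.01 ± 0.19) and Mmp19 (1.20 ± 0.28) were called there, against 21.5% of all genes, and 7 of the 8 reached an adjusted p of at most 0.05 (6 higher, and Timp3 lower at -0.74 ± 0.25), beside 52% of all genes. Leaving out 1 more of the 19 gave 1 to 4 called, with 1 when HFD fl/fl replicate 2 was left out and 4 when chow AKO replicate 6 was.

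**Figure D2:**
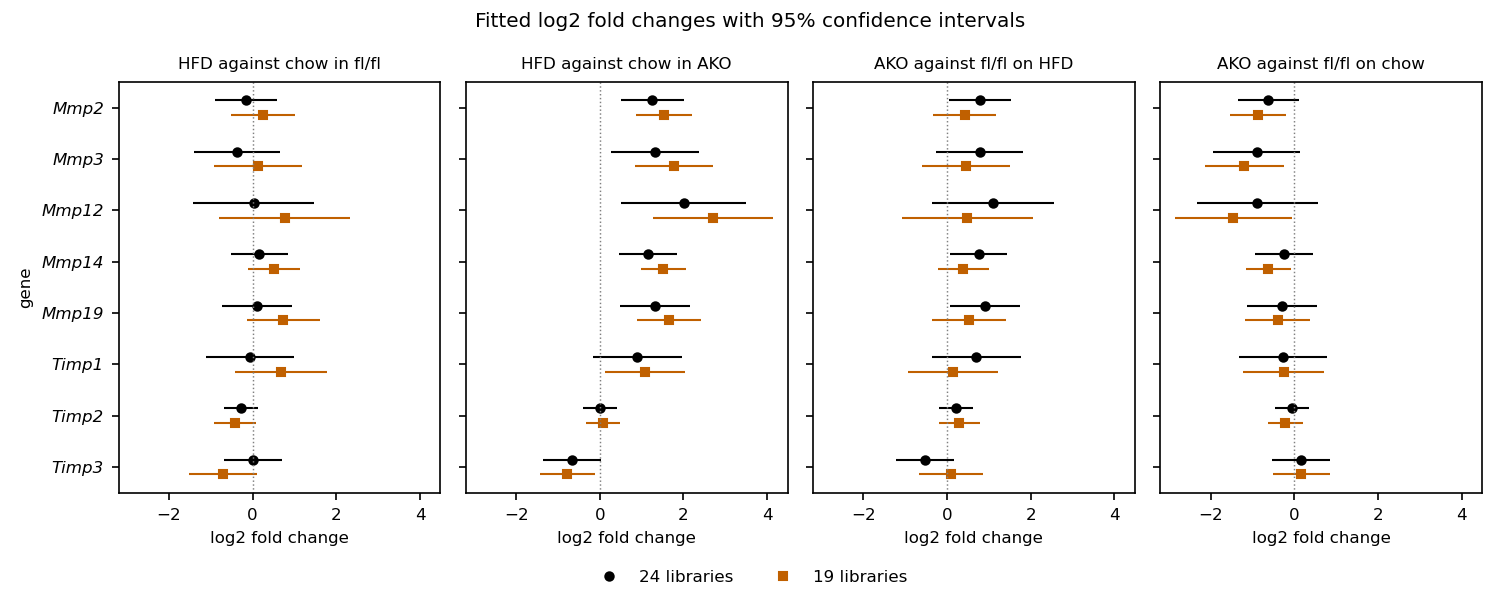
Log2 fold change of each gene in 4 comparisons, with 95% confidence intervals, from edgeR on 24 libraries (circles) and on the 19 left after the inferred removal (squares). The intervals of the 5 metalloproteinases lie above 0 for HFD against chow in AKO mice in both fits, and that of Timp2 is centred at 0.

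Genotypes were then compared within each diet, which asks what the adipocyte deletion changed in mice on the same diet. On HFD the metalloproteinases were at log2 differences of 0.75 to 1.10, AKO over fl/fl, led by Mmp12 (1.10 ± 0.71) and Mmp19 (0.92 ± 0.40), with Mmp2 at 0.79 ± 0.36 and Mmp14 at 0.75 ± 0.33. Timp1 was at 0.70 ± 0.51, Timp2 at 0.21 ± 0.20 and Timp3 at -0.53 ± 0.34. None of the 8 was called, against 0.16% of all genes, and the lowest adjusted p was 0.313, for Mmp19. Without adjustment Mmp2, Mmp14 and Mmp19 had p of 0.0366, 0.0333 and 0.0325, beside 14.8% of all genes under 0.05. With the 19 libraries these 3 differences were 0.43, 0.39 and 0.53, Timp3 turned to 0.10 ± 0.36, and none was called, against 0.572% of all genes. Sample quality weights put 4 of the 8 at an adjusted p of at most 0.05, beside 16.1% of all genes, and called none.

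On chow the order was the other way, with log2 differences of -0.62 ± 0.36 for Mmp2, -0.90 ± 0.51 for Mmp3, -0.88 ± 0.70 for Mmp12, -0.25 ± 0.33 for Mmp14 and -0.30 ± 0.40 for Mmp19, AKO against fl/fl. The inhibitors were at -0.26 ± 0.51 for Timp1, -0.06 ± 0.20 for Timp2 and 0.15 ± 0.34 for Timp3. None was called, against 0.126% of all genes, and adjusted p was 0.901 or more. With the 19 libraries Mmp2 was at -0.86 ± 0.32 and Mmp12 at -1.46 ± 0.67, adjusted p 0.489 and 0.580, with none called against 0.209% of all genes. Sample quality weights on the 24 libraries called 2 of the 8, Mmp2 at -1.17 and Mmp3 at -1.66, beside 1.96% of all genes. The comparison of diets in AKO mice shares its chow group with this one and its HFD group with the last, so the 3 are not separate evidence.

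MMP and TIMP read counts were also set against each other within each library, a ratio that does not depend on the library total. Mmp14 counts were 0.272 of Timp2 counts at the median in HFD AKO mice (range 0.222 to 0.398) and 0.0932 in chow AKO mice (0.0737 to 0.201), with no overlap. In fl/fl mice the medians were 0.155 on HFD (0.0819 to 0.358) and 0.15 on chow (0.0612 to 0.172), and HFD reached into the range of HFD AKO mice. Mmp2 to Timp2 behaved alike, with a median of 0.183 in HFD (0.124 to 0.195) and 0.0551 in chow AKO mice (0.0392 to 0.105), again without overlap, and 0.119 and 0.105 in HFD and chow fl/fl mice. Mmp14 to Timp3 had medians of 2.21, 0.623, 1.33 and 1.18 in HFD AKO, chow AKO, HFD fl/fl and chow fl/fl mice, and overlapped between all groups. Mmp12 to Timp1, a pair in which both genes tended upward in HFD AKO mice, had medians of 30.2, 9.06, 21.4 and 19.6 in the same order. The ratios describe transcripts, were not tested, and carry no information on enzyme activity or proenzyme cleavage. How often ratios of other gene pairs do not overlap between these groups was not counted.

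**Figure D3:**
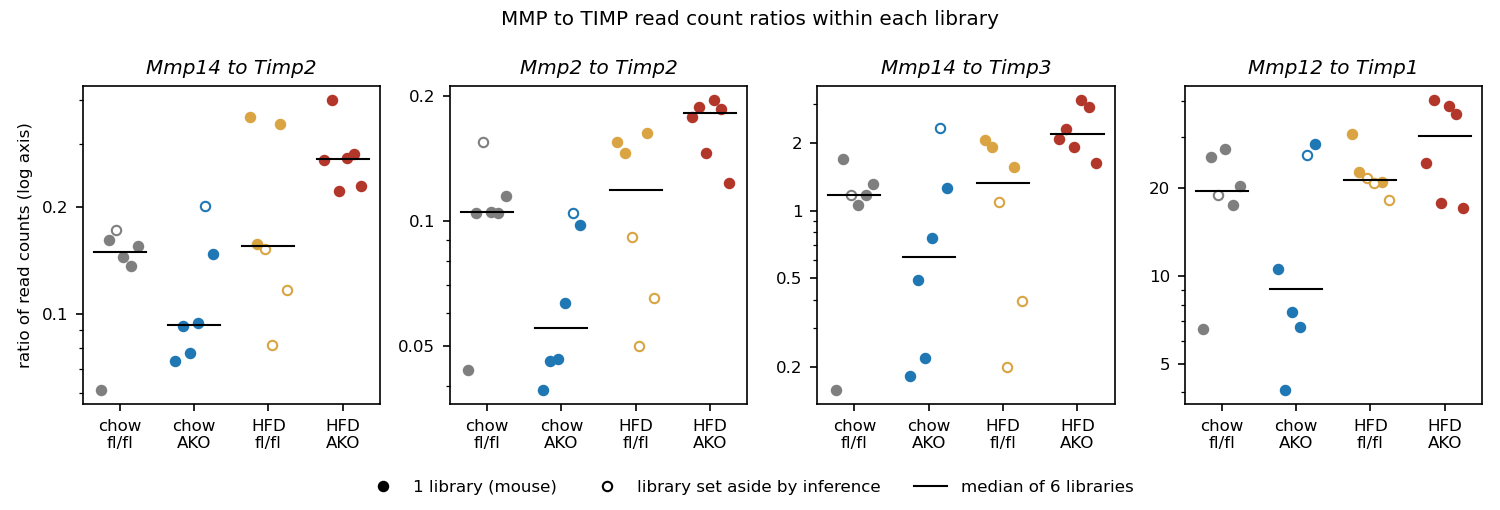
Ratio of MMP to TIMP read counts in each library, on a log axis, by group, with hollow points for the 5 libraries inferred to have been set aside and a line at the median of 6. For Mmp14 to Timp2 the HFD AKO points start at 0.222, above the highest chow AKO point at 0.201.

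Libraries of 1 group, each from 1 mouse, differed from each other more in these genes than in most. The pooled standard deviation within groups was 1.47 on the log2 scale for Mmp12, larger than for 98.9% of the 15020 genes, and 1.05 and 1.04 for Mmp3 and Timp1, against 0.421 for the median gene. Mmp19 was at 0.748, Mmp2 at 0.678, Mmp14 at 0.632 and Timp3 at 0.588. Timp2 was the exception at 0.329, below the median gene. From the lowest to the highest of the 24 libraries Mmp12 spanned 89.8-fold, Timp1 16.3-fold, Mmp3 14.1-fold and Timp2 2.14-fold. Chow fl/fl replicate 1 held the lowest value of its group for the 5 metalloproteinases and Timp1 and the highest for Timp3, and HFD fl/fl replicate 4 did the same in its group.

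These deviations were shared. Over 24 libraries, with each gene taken as its log2 deviation from its group mean, Mmp2, Mmp3, Mmp12, Mmp14, Mmp19 and Timp1 correlated with each other at Pearson's r of 0.738 (Mmp14 with Mmp19) to 0.929 (Mmp2 with Mmp14). Timp3 ran the other way, at -0.846 with Mmp19 to -0.942 with Mmp12 (Spearman's rho -0.923, and r = -0.898 without the 2 libraries farthest from the median of Mmp12). Within each group of 6 the correlation of Mmp12 with Timp3 was -0.971, -0.918, -0.960 and -0.881 in chow fl/fl, chow AKO, HFD fl/fl and HFD AKO mice. Timp2 followed neither, at 0.135 to 0.537 with the metalloproteinases and -0.208 with Timp3 over the 24, although within chow AKO mice it was at 0.898 with Mmp2, 0.949 with Mmp3, 0.883 with Mmp14 and -0.874 with Timp3. Points of 1 library share its total count. With group means left in, log2 CPM correlated with log2 library total at -0.330 (Mmp14) to 0.143 (Timp3). The correlation of the deviations themselves with library total was not computed. The correlations between genes are a description of 24 mice, 1 of them far from the rest.

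**Figure D4:**
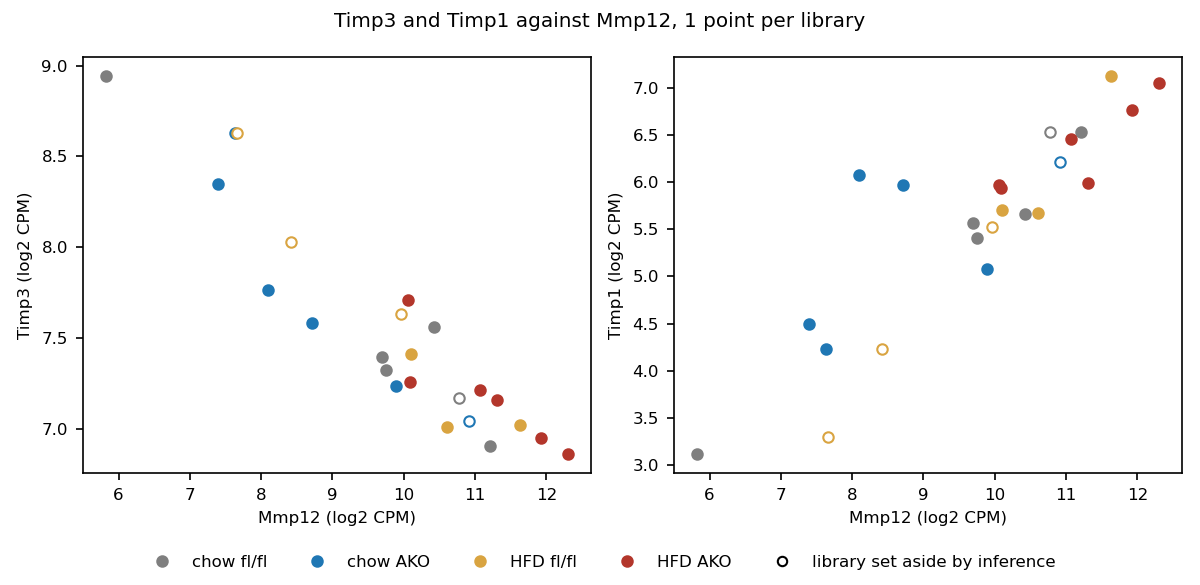
Timp3 (left) and Timp1 (right) against Mmp12, all in log2 CPM, with 1 point per library coloured by group and hollow points for the 5 libraries inferred to have been set aside. Timp3 falls and Timp1 rises with Mmp12 in each group, and the point at the far left is chow fl/fl replicate 1.

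The same axis ran through the markers of cell types. Deviations of the summed macrophage markers correlated with those of Mmp12 at 0.917, Mmp2 at 0.900 and Mmp14 at 0.894, and with Timp3 at -0.956. Deviations of the summed adipocyte markers correlated with Timp3 at 0.941, with Mmp12 at -0.928 and with Mmp14 at -0.924. Endothelial markers correlated with Timp3 at 0.817, and stromal markers more weakly, at most 0.656 with Mmp14. Smooth muscle and pericyte markers correlated with Timp3 at 0.879, and mast cell markers with the 5 metalloproteinases at 0.755 (Mmp3) to 0.860 (Mmp14). Timp2 lay between -0.203 and 0.281 with these lists. Mesothelial markers correlated with Timp2 at -0.491 and with the 5 metalloproteinases at -0.328 (Mmp19) to -0.505 (Mmp2). For the first principal component of all genes, group means were not taken out. It correlated at 0.802 to 0.901 with log2 CPM of the 5 metalloproteinases and Timp1, at -0.883 with Timp3 and at -0.03 with Timp2. How far the macrophage and adipocyte content of each sample accounts for these levels was not tested.

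**Figure D5:**
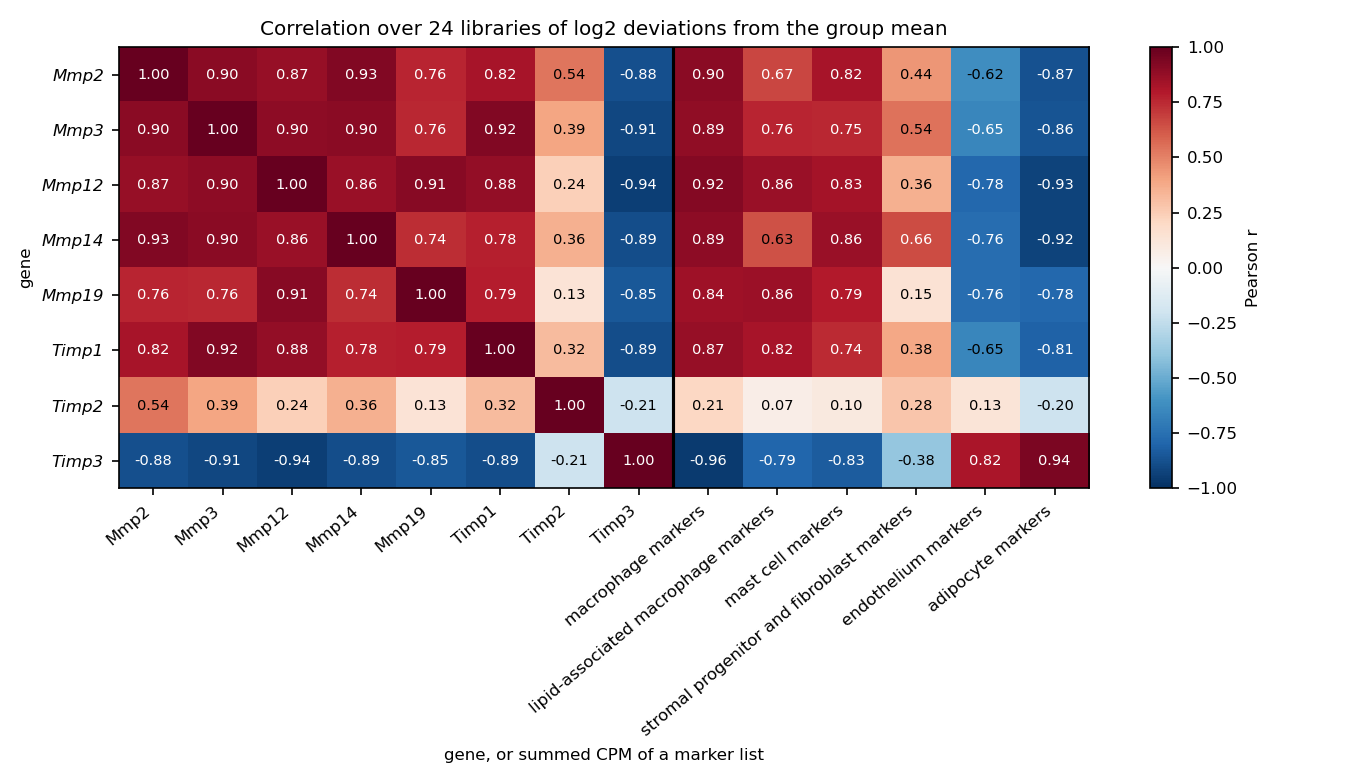
Pearson's r over 24 libraries between log2 deviations from the group mean of the 8 genes (left of the line) and of summed marker lists (right of the line). The 5 metalloproteinases and Timp1 form a positive block with macrophage, lipid-associated macrophage and mast cell markers. Timp3 has the opposite sign and goes with adipocyte and endothelial markers. The values of Timp2 with the other 7 genes reach 0.537 at most, with Mmp2.

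The genes with the most similar deviations were taken as the 3 highest in Pearson's r among 14986 tested genes with a symbol. For Mmp12 they were Ms4a6d (0.979), Itgb2 (0.971) and Wfs1 (0.969), and Itgb2 encodes the leukocyte integrin chain CD18. For Mmp2 they were Stab1 (0.972), which encodes a scavenger receptor of macrophages and sinusoidal endothelium, Dennd4b (0.968) and Plxnb2 (0.964). Mmp3 was most like Syngr1 (0.960), Aopep (0.958) and Trem2 (0.957), the last a receptor of lipid-associated macrophages. Mmp14 was most like Dnase2a (0.968), Nlrc3 (0.953) and Ms4a14 (0.952), and Mmp19 most like Cd5l (0.964), a protein secreted by macrophages, Esd (0.954) and B430306N03Rik (0.951). The 3 inhibitors had other partners. Timp1 was nearest to Tuba1c (0.948), Emp3 (0.946) and Fhl2 (0.943), Timp3 to Atp2b4 (0.977), a plasma membrane calcium pump, Slc25a25 (0.965) and Akap12 (0.961), and Timp2 to Ssrp1 (0.872), Ap5s1 (0.863) and Rab14 (0.844) at lower values.

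Beyond the 8 genes, 75 other genes of pericellular proteolysis were listed, of which 60 were in the deposited tables and 56 were tested. In HFD against chow AKO mice 3 of the 56 were called, all higher and all metalloproteinases, beside 1.19% of all genes called as higher, and at an adjusted p of at most 0.05 8 were higher and 7 lower, beside 9.06% and 13.5% of all genes. The 3 calls became 0 without chow AKO replicate 1 or 3 and 8 without chow AKO replicate 5. On the 19 libraries 8 of 55 were called as higher and 6 as lower, beside 15.8% of all genes called. Mmp11, stromelysin-3, was at 27.8, 52.2 and 72.3 CPM (lowest, median, highest) in HFD and 13.4, 17.2 and 45.9 CPM in chow AKO mice (log2 fold change 1.25 ± 0.32, adjusted p = 0.0174). Mmp23 was at 26.2, 30.1 and 35.5 CPM against 15.6, 19.4 and 26.7 CPM (0.61 ± 0.16, adjusted p = 0.0185), and Mmp27 at 1.59, 2.60 and 3.76 CPM against 0.333, 0.677 and 1.07 CPM (1.89 ± 0.46, adjusted p = 0.0158). Mmp27 did not overlap between these groups, the others did, and Mmp27 had as few as 5 counts in a library of these groups and 1 in a chow fl/fl library. The share of all genes that do not overlap between these groups was not counted, and 39.9% had an unadjusted edgeR p under 0.05. Of the 11 tested MMPs and TIMPs outside the 8, 4 were higher and 2 lower at an adjusted p of at most 0.05, with a median log2 fold change of 0.61, and the shares of all genes given above are the background for this and the next counts.

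The other proteolytic families had no called gene in that comparison on 24 libraries. On the 19 libraries 1 ADAM, 1 ADAMTS and 3 activators and other regulators were called as higher and 3 ADAMTS and 1 of the regulators as lower. Of 12 ADAMTS proteases 2 were higher and 4 lower at an adjusted p of at most 0.05, and the gene of lowest p, the aggrecanase Adamts5, was lower by a log2 fold change of -1.18 ± 0.32 (adjusted p = 0.0211). It was at 210, 226 and 269 CPM in HFD and 274, 486 and 986 CPM in chow AKO mice. The 2 ranges thus came close without overlap, and the share of all genes without overlap was not counted. Adamts5 was called with the 19 libraries (-1.30 ± 0.24). Of 10 ADAM genes 1 was higher, of 9 genes of the plasminogen system none passed, and of 14 activators and other regulators 1 was higher and 1 lower. Averaged over genotypes, Adam12, a disintegrin metalloproteinase, was higher on HFD by 0.66 ± 0.18 (adjusted p = 0.0297) and Plat, tissue plasminogen activator, by 1.02 ± 0.31 (adjusted p = 0.0369), and Mmp27 was the only 1 of the 56 called, at 1.26 ± 0.32 (adjusted p = 0.0233), beside 2.3% of all genes. Leaving out 1 of the 24 libraries gave 0 to 3 called there, 0 among others without chow AKO replicate 1, 2 or 3 and 3 without chow fl/fl replicate 3. On the 19 libraries 12 were called as higher and 6 as lower, beside 21.5% of all genes. In fl/fl mice none of the 56 was called on 24 libraries, and with the 19 libraries 4 were higher and 2 lower, beside 11.8% of all genes. Reck, a membrane-anchored MMP inhibitor, had the lowest p there (1.37 ± 0.34, adjusted p = 0.337) at a group mean of at most 1.70 CPM. For the comparisons of genotype within a diet none of the 56 was called on 24 libraries and none had an adjusted p of at most 0.05. Mmp11 was called there on the 19 libraries, on chow, at a log2 difference of -1.12 ± 0.23 in AKO against fl/fl mice (adjusted p = 0.241), and none was called on HFD.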

How the data were processed

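Total RNA of eWAT from 24 mice was sequenced with Lexogen QuantSeq 3′ kits, and the authors made read counts per gene with the Lexogen QuantSeq pipeline on GRCm38. The strand setting is not given in the sources used here. The deposited count table holds raw counts for 16730 genes, and a second deposited table holds the same genes as normalised signal, counts divided by size factors per the submitters' processing notes (R 4.0.3, DESeq2 1.30), which was used for gene symbols and checked against the counts. Symbols came from that table for 14067 genes and from a reference table for 2616 more.

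Genes that reached 1 CPM in 3 or more libraries were tested in edgeR 4.0.16 (R 4.3.3) by the quasi-likelihood test with TMM scaling and 1 coefficient per group over all 24 libraries, with Benjamini-Hochberg adjusted p-values over all tested genes. The 6 comparisons are those of the report. A called gene met 3 criteria: 1.5-fold change, nominal p no higher than 0.001 and an average of 2 CPM or more on the higher side. limma 3.58.1 (voom) and DESeq2 1.42.0, RLE size factors, no filter, the 19 libraries, a replicate block and leaving out each library were alternatives. The script was tested on simulated data. Levels use a prior count of 2 on the log2 scale, and counting precision is that of 5579590 counts or more per library. Mice are separate animals per the labels. The 60 pairs of libraries within groups all differed by more than sampling noise, with chi-square at least 5.72 times its degrees of freedom.

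The 8 genes, the gene lists and the 5 libraries were chosen with earlier results of these data known. Genes named beside the 8 are Lama4, those called from each list (at most the 4 of lowest p per comparison, or the 1 of lowest p where none was called) and the 3 most correlated with each of the 8. Promoter sequences came from RefSeq.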

Additional observations from a re-analysis of the deposited data

Results flagged for a closer look

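In 7 of 32 sets of 6 libraries (8 genes in 4 groups) 1 library lay far from the others, by the gap to its nearest neighbour as a share of the range of log2 CPM, above Dixon's 95% critical value of 0.625; chance gives about 5% of such sets, and the 8 genes share their libraries. Chow fl/fl replicate 1 was the lowest library of its group for Mmp2 (share 0.844), Mmp3 (0.798), Mmp12 (0.719), Mmp14 (0.778) and Timp1 (0.671), and the highest for Timp3 (0.678). Its Mmp12 was at 5.82 log2 CPM against 9.70 for the next library of the group, and its Timp3 at 8.94 against 7.56. Chow fl/fl replicate 3 was the lowest of its group for Timp2 (0.653).

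Mmp15, a membrane-type metalloproteinase outside the 8 genes, met the 3 criteria of a call for the interaction of diet and genotype (log2 difference of -1.40 ± 0.37, edgeR adjusted p = 0.226). It was at 3.64 to 7.34 CPM in HFD and 4.53 to 12.8 CPM in chow AKO mice, and at 5.33 to 11.9 CPM and 4.09 to 8.33 CPM in HFD and chow fl/fl mice, with as few as 27 counts in a library. The call was lost with the 19 libraries (-1.08 ± 0.35, adjusted p = 0.205). On those 19, 1 gene of the pathway list was called as higher and 1 as lower for the interaction, beside 0.673% of all genes. The higher was Mmp11, at 1.81 ± 0.35 (edgeR adjusted p = 0.108). With the replicate block no gene of the pathway list was called for the interaction, and leaving out single libraries gave 0 to 3 genes of the list, 0 among others without any 1 of chow AKO replicates 1 to 3 or HFD AKO replicates 1 to 5.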

How the results depend on the processing

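Direction and call of the 8 genes in the 6 comparisons, 48 values in all, were the same with no filter on low counts and with RLE size factors, and no direction turned with limma-voom or DESeq2. For HFD against chow in AKO mice, where edgeR on 24 libraries called 0 of 8, the call depended on the method and libraries: limma-voom called 2, DESeq2 3, limma-voom with sample quality weights 5, edgeR on the 19 libraries 5, limma-voom on those 19 gave 4, and an adjusted p of at most 0.05 alone gave 4. At that adjusted p sample quality weights gave 7 of 8 in place of 4, beside 53.3% in place of 22.5% of all genes. In the same comparison all genes called numbered 643 in edgeR (179 higher), 610 in limma-voom (280 higher), 1314 in DESeq2 (410 higher), 3584 with sample quality weights (1628 higher) and 2344 with 19 libraries (933 higher). Without each library in turn 0 to 3 of the 8 were called and 0 to 5 reached an adjusted p of at most 0.05, and for HFD against chow averaged over genotypes 0 to 1 were called and 0 to 4 reached it.

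With sample quality weights the interaction of diet and genotype had 5 of 8 called and 7 at an adjusted p of at most 0.05 (29.3% of all genes), and AKO against fl/fl on chow had 2 and 2 (4.9%). At that adjusted p AKO against fl/fl on HFD had 4 (16.1%). HFD against chow averaged over genotypes had 3 (31.6%), with 1 in DESeq2 (21.9%), and for this averaged comparison the counts were close to or below the share of all genes. For the averaged comparison the 19 libraries gave 2 called in edgeR and 3 in limma-voom, with 7 at that adjusted p in both (52% and 52.8% of all genes). Of the other pathway genes in AKO mice, where edgeR called 3, DESeq2 called 9, sample quality weights 18, limma-voom on the 19 libraries 13 and the replicate block 1. In fl/fl mice limma-voom on the 19 libraries called 5, and sample quality weights called 2 for genotype on chow and 1 on HFD. Why sample quality weights gave more calls was not tested.

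Some directions turned, including Timp3 in AKO against fl/fl on HFD, at -0.53, and Mmp3 in HFD against chow in fl/fl mice, at -0.37. For HFD against chow in fl/fl mice the 19 libraries gave 0.25 for Mmp2, 0.13 for Mmp3, 0.68 for Timp1 and -0.71 for Timp3 in edgeR, and 0.29, 0.36, 0.84 and -0.54 in limma-voom, and sample quality weights gave -0.63 for Mmp12, -0.28 for Mmp14 and -0.0702 for Mmp19. Leaving out single libraries there gave -0.54 to 0.29 for Mmp12, -0.0177 to 0.29 for Mmp14, -0.16 to 0.32 for Mmp19, -0.66 to 0.10 for Timp1 and -0.28 to 0.44 for Timp3. For Timp2 in AKO mice it gave -0.0749 to 0.0854, with 0.0813 under sample quality weights and 0.0780 and 0.0792 on the 19 libraries in edgeR and limma-voom. For AKO against fl/fl on chow it gave -0.13 to 0.0146 for Timp2 and -0.0718 to 0.59 for Timp3, and on HFD the 19 libraries gave 0.10 and 0.0846 for Timp3 in edgeR and limma-voom.

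The labels number replicates 1 to 6 in each group, but libraries with the same number did not deviate together (r of -0.534 to 0.714, and no number had all its pairs over 0.1). With the replicate block no call among the 8 changed (3 in place of 4 reached an adjusted p of at most 0.05 in AKO mice), 478 genes in all were called for HFD against chow in AKO mice, and Timp2 there was at 0.0072 in place of -0.00488.

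The shallowest library held 5579590 counts, and the lowest count of any of the 8 genes was 46, for Mmp3. The wide error of Mmp12, Mmp3 and Timp1 is spread between libraries of the same group. No mouse had a repeat library, so differences between mice cannot be told apart from differences in preparation. QuantSeq counts give no isoforms, and transcripts give no enzyme activity.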
